A study of Homo sapiens with 16 samples.

Results

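The replication-dependent histone genes are described here by class and by cluster in A375 melanoma xenografts treated with JQ1, vemurafenib or both. They were taken as the gene symbols that begin with HIST, a cluster number from 1 to 4 and H. HIST1H1C, HIST1H2AC, HIST1H2BD, HIST1H2BK and HIST2H2BE were left out, since they also make polyadenylated mRNA. This gave 68 of the 23260 symbols with values, of which 5 encode H1, 17 H2A, 17 H2B, 14 H3 and 15 H4. HIST1 genes lie on chromosome 6, HIST2 and HIST3 genes on chromosome 1 and HIST4H4 on chromosome 12. By cluster, 52 carry the number 1, 12 the number 2, 3 the number 3 and 1 the number 4. A filter on low values, described with the tests, kept 56 of the 68.

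H2A, H2B, H3 and H4 form the protein core around which DNA is wound in the nucleosome, and H1 binds the DNA between nucleosomes. Cells make the bulk of these proteins during S phase, from clustered genes with no introns. Their mRNA ends in a short stem-loop in place of a poly(A) tail. The stem-loop binding protein SLBP and the U7 small nuclear ribonucleoprotein direct its cleavage, and the same stem-loop is where the mRNA is degraded once DNA synthesis stops.

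A375 is an established human melanoma line with mutant BRAF. The cells were grown on both flanks of NOG mice, an immunodeficient strain that lacks lymphocytes and natural killer cells but keeps its own blood vessels, fibroblasts and myeloid cells. The J+V tumors came from mice that received JQ1 and vemurafenib, the J tumors from mice given JQ1 alone and the V tumors from mice given vemurafenib alone, against control tumors from mice given the vehicle of DMSO and a cyclodextrin. JQ1, which displaces BET bromodomain proteins from acetylated histones, was given at 50 mg/kg daily, and vemurafenib, which inhibits mutant BRAF, at 25 mg/kg in each of 2 doses a day, by intraperitoneal injection. Each group held 4 tumors, the left and right flank tumors of 2 mice, removed on day 5. The age and sex of the mice are not given in the labels. Total RNA was depleted of ribosomal RNA rather than selected for poly(A), so that mRNA without a tail stayed in the libraries. The values are the FPKM of the authors. An FPKM counts fragments relative to the length of a transcript and the size of a library, so levels of different genes can be compared per length. The 4 tumors of a group share 2 mice, and p-values measure the spread between these tumors.

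The stem-loop was looked for in the genome (GRCh37) within 150 bases after the stop codon of each annotated coding transcript, with up to 1 mismatch allowed. It was present with 0 mismatches in all 62 genes that could be searched, 22 to 67 bases after the stop codon (median 35). HIST1H2APS1, HIST2H2BA and HIST2H2BC, which are annotated as pseudogenes, and HIST1H2BF, HIST1H2BG and HIST1H4F were not searched. Among the 62 genes 10 different stem-loops of 16 bases were found, and 36 genes carried the same one. The lines below show the stem-loop of the most abundant member of each class, with 5 bases on either side, and those of HIST1H3E and HIST4H4, which stand apart in the values. Capitals mark the stem-loop and lower case its flanks, all in the 5′ to 3′ direction of the gene.
HIST1H1D (chr6:26234440-26234465, minus strand): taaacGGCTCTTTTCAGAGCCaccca
HIST2H2AC (chr1:149858936-149858961, plus strand): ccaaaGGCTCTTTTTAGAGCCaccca
HIST1H2BC (chr6:26123695-26123720, minus strand): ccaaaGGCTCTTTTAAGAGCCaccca
HIST1H3C (chr6:26046072-26046097, plus strand): gaaaaGGCTCTTTTCAGAGCCactca
HIST1H4E (chr6:26205224-26205249, plus strand): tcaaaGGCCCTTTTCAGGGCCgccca
HIST1H3E (chr6:26225819-26225844, plus strand): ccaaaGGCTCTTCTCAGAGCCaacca
HIST4H4 (chr12:14923653-14923678, minus strand): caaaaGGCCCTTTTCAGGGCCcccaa

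The form of HIST1H1D and HIST1H3C was the one in 36 genes, of several classes. The form of HIST1H4E and HIST4H4 was in 9 genes, all of class H4. HIST1H2BC carried a form found in 7 genes, and HIST2H2AC and HIST1H3E each carried a form of their own. The 5 genes left out for their polyadenylated mRNA carry the stem-loop too.

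Upstream of the start sites the classes differed in sequence. RefSeq promoters (GRCh38.p14, 250 bases before to 50 after the start) were matched for 60 of the 68 genes and searched on both strands for TATAAA, the pentamer CCAAT, the octamer ATTTGCAT, the H1 element AAACACA and the H4 element GGTCCG. The octamer, the letters bound by POU2F1 in H2B promoters, was in 12 of 15 H2B promoters and 10 of 15 H2A promoters, against 1.77% of 35116 promoters of the same length. AAACACA was in 5 of 5 H1 promoters (5.64% of all promoters) and GGTCCG in 12 of 13 H4 promoters (11.28%). CCAAT was in each of the 5 H1, 15 H2A, 15 H2B and 12 H3 promoters but in 3 of 13 H4 promoters (34.61% of all). Outside these classes the octamer was in 1 of 12 H3 promoters, AAACACA in 1 of 15 H2A and 2 of 12 H3 promoters, and GGTCCG in 1 of 15 H2A and 1 of 12 H3 promoters. No motif contains another. The counts by class are of genes with a match in any of their listed promoters, while the shares of all are of single promoters. TATAAA was in 3, 11, 9, 10 and 7 promoters of H1, H2A, H2B, H3 and H4 (11.53% of all). The 160 bases before the start of the most abundant member of each class show these layouts side by side, with CCAAT and TATAAA on either strand in capitals, and in capitals also AAACACA in HIST1H1D, the octamer in HIST1H2BC and GGTCCG in HIST1H4E. These matches are letters in a window and not measured binding sites.
HIST1H1D (chr6:26234988-26235147, minus strand): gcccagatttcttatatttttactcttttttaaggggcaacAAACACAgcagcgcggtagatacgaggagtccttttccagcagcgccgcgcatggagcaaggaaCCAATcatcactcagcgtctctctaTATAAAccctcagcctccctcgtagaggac
HIST2H2AC (chr1:149886758-149886917, plus strand): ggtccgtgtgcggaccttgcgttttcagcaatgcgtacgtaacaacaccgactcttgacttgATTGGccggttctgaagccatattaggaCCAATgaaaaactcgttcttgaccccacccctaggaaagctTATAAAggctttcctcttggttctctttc
HIST1H2BC (chr6:26123927-26124086, minus strand): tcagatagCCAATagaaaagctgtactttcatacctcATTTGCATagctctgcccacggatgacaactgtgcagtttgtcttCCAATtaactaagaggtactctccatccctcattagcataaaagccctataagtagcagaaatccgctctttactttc
HIST1H3C (chr6:26045224-26045383, plus strand): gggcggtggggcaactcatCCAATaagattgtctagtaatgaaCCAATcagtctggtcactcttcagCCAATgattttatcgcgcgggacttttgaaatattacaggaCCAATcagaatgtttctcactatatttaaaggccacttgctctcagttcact
HIST1H4E (chr6:26204450-26204609, plus strand): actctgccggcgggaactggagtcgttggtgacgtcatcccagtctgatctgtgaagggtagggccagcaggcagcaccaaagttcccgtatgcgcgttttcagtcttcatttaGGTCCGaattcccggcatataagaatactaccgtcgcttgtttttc

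The number of fragments behind the FPKM is unknown. The size of the smallest steps among low values put the depth of the tumors, relative to their common level, at 0.838 to 0.992 in J+V, 0.968 to 1.17 in J, 0.876 to 1.10 in V and 0.999 to 1.17 in control tumors. The melanoma marker list summed to 115 to 204 FPKM in J+V tumors, 76.4 to 116 in J tumors, 102 to 119 in V tumors and 78.4 to 130 in control tumors. Of its 9 genes 5 were tested, DCT was listed at 0 in each tumor, and PMEL, TYR and TYRP1 stayed under 1 FPKM. None of 5 endothelial markers reached the filter, with sums of 0.98 to 1.94 FPKM in J+V, 0.76 to 1.15 in J, 0.66 to 1.25 in V and 0.70 to 1.20 in control tumors. Fibroblast markers summed to 62.4 to 115 FPKM in J+V, 57.3 to 74.1 in J, 55.5 to 112 in V and 36.2 to 121 in control tumors, and macrophage and leukocyte markers to 22.9 to 27.2 FPKM in J+V, 27.0 to 30.0 in J, 18.7 to 26.6 in V and 19.0 to 22.8 in control tumors. In J+V against control 2 melanoma markers (MLANA and S100B) and 3 of 6 fibroblast markers (DCN, LUM and PDGFRB) rose and none fell, with list medians of 0.38 and 0.61 on the log2 scale, and 0 of 2 macrophage markers passed the test (median 0.22), beside 16.6% of all genes called higher in this comparison. The reads were mapped to the human genome hg19, while vessels, fibroblasts and myeloid cells of these tumors are mouse cells. The values of the endothelial, fibroblast, macrophage and leukocyte markers therefore do not measure the content of such cells. The part of other cells in the histone values was not tested. In bulk tumors fewer cells in S phase and less histone RNA in each such cell cannot be told apart.

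Histone RNA was lowest in the J+V tumors in each class. The FPKM of the 68 genes summed to 2630.0, 2467, 3991 and 3783 in the J+V tumors, 7884, 9324, 9214 and 7949 in the J tumors and 6915, 5491, 5584 and 8381 in the V tumors, against 8624, 10704, 9838 and 10307 in the control tumors. Each J+V tumor lay below each tumor of the other groups, the V tumors reached up to the J tumors through 1 tumor, and the J and control tumors overlapped. The mean sum was 3218 ± 780.2 in J+V, 8593 ± 782 in J and 6593 ± 1358 in V tumors, against 9868 ± 902 in control tumors (SD, n = 4 each). This left 32.6% of the control mean in J+V, 87.1% in J and 66.8% in V tumors. The sums are a description and carry no test.

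Each class lost most of its RNA in J+V tumors. H2B retained 28.9% of its control mean, H3 29.8%, H2A 30.3%, H4 36.5% and H1 39.8%. In V tumors the classes stood at 63.2% (H4) to 74.8% (H1) of control, and in J tumors at 83.3% (H2A) to 101% (H1). H1, the linker histone class, summed to 205, 214, 371 and 311 FPKM in J+V tumors, 625, 759, 732 and 676 in J tumors and 538, 417, 451 and 661 in V tumors, against 633, 734, 681 and 717 in control tumors. H4, the most abundant class per length, summed to 971, 886, 1438 and 1427 FPKM in J+V tumors, 2563, 2967, 2987 and 2461 in J tumors and 2409, 1689, 1709 and 2383 in V tumors, against 2771, 3527, 3166 and 3488 in control tumors. In both classes each J+V tumor lay below each other tumor, while for H4, unlike H1, each V tumor also lay below each control tumor.

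**Figure D1:**
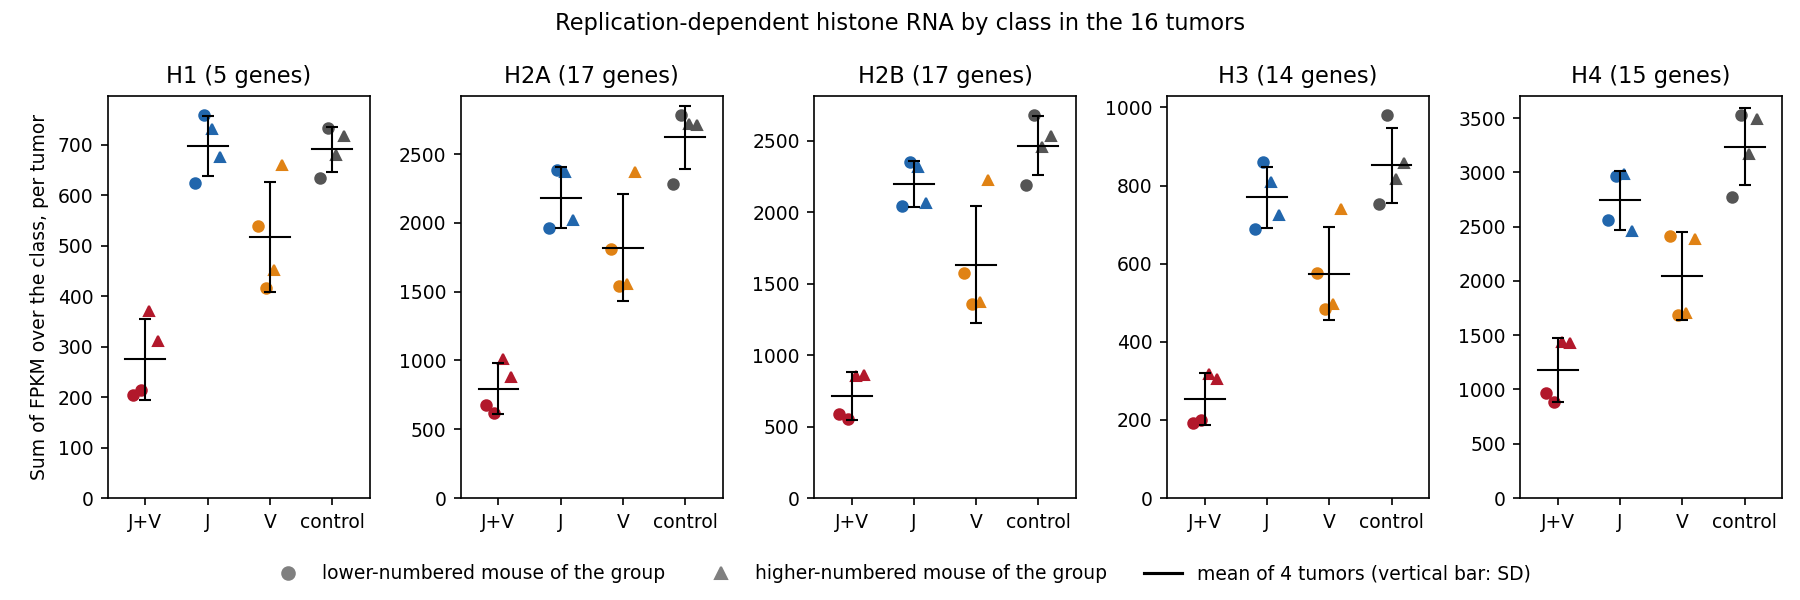
Summed FPKM of the replication-dependent histone genes by class, in each tumor, by group from J+V to control. Circles and triangles mark the lower-numbered and higher-numbered mouse of a group, and the horizontal bar with its vertical bar the mean and SD of 4 tumors. The sum over all 68 genes, not drawn here, spans 2467 to 3991 FPKM in the J+V group, below the 5491 to 10704 FPKM of the other 12 tumors.

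The tumors of 1 mouse sat together in the J+V group. Both tumors of mouse 33 were at 25.8% of the control mean on average and those of mouse 34 at 39.4%, and both tumors of mouse 33 lay below both of mouse 34 in 44 of the 56 tested genes, against 21.2% of all genes tested. In the V group the right tumor of mouse 19 was the highest in 47 of 56 genes (31.2% of all genes), and its sum of 8381 FPKM compared with 8624 FPKM in the lowest control tumor. MKI67, a gene of proliferating cells, was at 10.3 and 9.52 FPKM in the tumors of mouse 33 and 21.5 and 14.1 FPKM in those of mouse 34. In the V tumors it was at 20.7 and 23.4 FPKM in mouse 16 and 29.0 and 26.4 FPKM in mouse 19, of which 26.4 was in the right tumor. The part of the mouse or of proliferation in the histone values was not tested.

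For the tests gene by gene the values were put on the scale log2(FPKM + 0.5), and the 13426 genes with at least 1 FPKM in at least 4 of the 16 tumors were fitted with limma, with the mouse as a block. A gene was called at a Benjamini-Hochberg adjusted p under 0.05 over all 13426, and fold changes are differences on the log2(FPKM + 0.5) scale, which understates those of low genes. In J+V against control 50 of the 56 histone genes were called lower and 0 higher. Over all genes 20.5% were called lower and 16.6% higher. The median difference was -1.65 over the 56 genes and -0.03 over all genes tested. HIST1H3I and HIST2H2AA3 stayed under 1 FPKM in each J+V tumor, so they passed the filter through tumors of other groups and had to be lower in J+V. Both were called and nothing is read from these calls. Without them 48 of 54 genes were called lower in J+V against control (median -1.66). Without overlap, each J+V tumor lay below each of the other 12 tumors in 39 of the 56 genes, against 6.09% of all genes.

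All classes took part. Lower calls were made for 4 of 5 H1 genes (median -1.30), 14 of 14 H2A genes (-1.72), 13 of 16 H2B genes (-1.70), 10 of 11 H3 genes (-1.66) and 9 of 10 H4 genes (-1.49). Without HIST1H3I and HIST2H2AA3 the counts were 13 of 13 for H2A (median -1.74) and 9 of 10 for H3 (-1.67). By cluster they were made for 42 of 46 genes of HIST1 (-1.70), 5 of 7 of HIST2 (-1.30), 2 of 2 of HIST3 (-1.61) and the 1 gene of HIST4 (-0.73). Without the same 2 genes they were 41 of 45 for HIST1 (-1.71) and 4 of 6 for HIST2 (-1.14). The HIST2 median of -1.30 over 7 genes was the value of HIST2H2AA3 itself. No test compared one class with another.

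**Figure D2:**
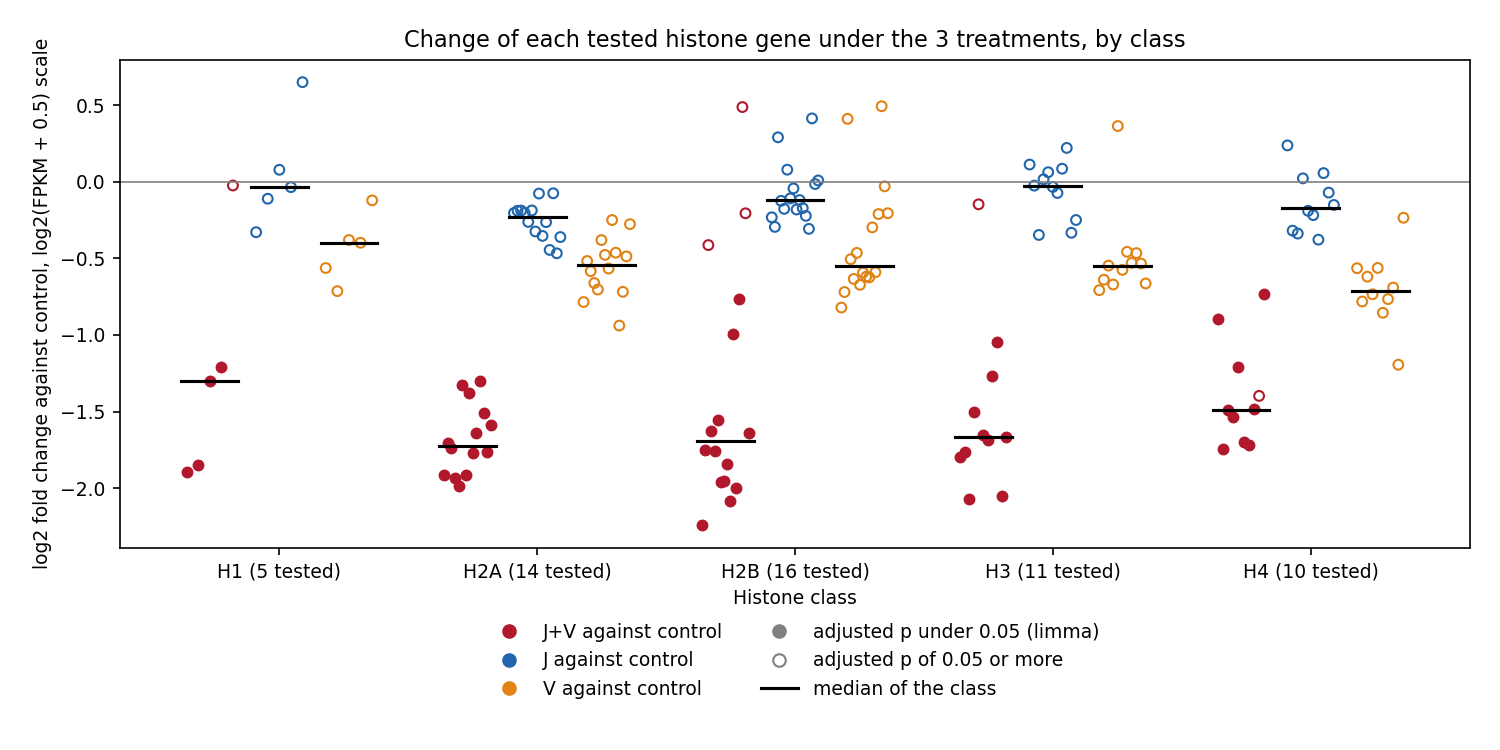
Difference on the log2(FPKM + 0.5) scale of each tested histone gene, by class (horizontal axis), in J+V, J and V against control. Points are genes, filled where called, and bars the class medians. In J+V against control the class medians run from -1.72 (H2A) to -1.30 (H1), while in J against control they run from -0.23 to -0.02.

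Among the linker histones, HIST1H1D had the highest level. It was at 122, 129, 217 and 190.1 FPKM in J+V tumors, 373, 449, 436 and 409 in J tumors and 318, 244, 275 and 391 in V tumors, against 357, 424, 369.7 and 429 in control tumors. The J+V tumors lay below all others, and J and control tumors overlapped. HIST1H1D fell in J+V against control with a difference by limma of -1.30 (standard error 0.173, adjusted p = 0.000109). HIST1H1E, another linker histone, averaged 70.1 ± 19.2 FPKM in J+V tumors and 159 ± 11.3 in control tumors (SD, n = 4 each), and HIST1H1B averaged 33.0 ± 13.6 in J+V and 113 ± 9.73 in control tumors. The differences were -1.21 (standard error 0.148, adjusted p = 6.22e-05) for HIST1H1E and -1.85 (standard error 0.245, adjusted p = 0.000103) for HIST1H1B. HIST1H1A, the least abundant of the 4 that were called, had the largest change of the class, -1.90 (standard error 0.233, adjusted p = 6.25e-05). HIST1H1T, the linker histone of the testis, was at 0.467 to 2.45 FPKM in J+V tumors and 0.745 to 3.28 in control tumors, and its difference of -0.02 did not pass the test (adjusted p = 0.969).

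In class H2A, HIST2H2AC had the highest level, at 113, 106, 160.1 and 125 FPKM in J+V tumors, 265, 335, 338 and 295 in J tumors and 324, 274, 247 and 381 in V tumors, against 347, 472, 455 and 433 in control tumors. The J+V tumors stood apart below all others, each J tumor was below each control tumor, and the V tumors overlapped the control tumors through 1 tumor. HIST2H2AC fell in J+V against control with a difference by limma of -1.76 (standard error 0.146, adjusted p = 1.91e-05). HIST1H2AM averaged 98.6 ± 23.1 FPKM in J+V tumors and 302 ± 23.1 in control tumors (SD, n = 4 each). The largest differences of the class were those of HIST1H2AH, -1.99 (standard error 0.197, adjusted p = 2.58e-05), and HIST1H2AG, -1.93 (standard error 0.190, adjusted p = 2.50e-05). HIST1H2AH was at 58.0, 61.02, 102 and 90.0 FPKM in J+V tumors, against 252, 329, 303 and 323 in control tumors. The groups did not overlap, and the highest J+V tumor was far below the lowest control tumor.

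In class H2B, HIST1H2BC was the most abundant. Its level was 143, 137, 187 and 213 FPKM in J+V tumors, 405, 514, 499 and 427 in J tumors and 358, 292, 282 and 462 in V tumors, against 473, 585, 573 and 634 in control tumors. No J+V tumor reached the tumors of another group, and each V tumor was below each control tumor, while J and control tumors overlapped. HIST1H2BC fell in J+V against control, with a difference by limma of -1.75 (standard error 0.164, adjusted p = 2.31e-05). HIST1H2BG averaged 119 ± 30.9 FPKM in J+V and 394 ± 40.7 in control tumors, and HIST1H2BJ averaged 81.3 ± 22.9 in J+V and 308 ± 28.2 in control tumors (SD, n = 4 each). HIST1H2BB and HIST1H2BM changed most, with -2.24 (standard error 0.211, adjusted p = 2.31e-05) and -2.09 (standard error 0.251, adjusted p = 5.50e-05). HIST1H2BM was at 27.8, 17.0, 38.5 and 35.8 FPKM in J+V tumors, 102, 139.8, 109 and 104 in J tumors and 62.1, 56.6, 90.4 and 124 in V tumors, against 124, 146, 122 and 102 in control tumors. Its J+V tumors did not overlap those of any other group.

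In class H3, HIST1H3C, HIST1H3B and HIST1H3H had the highest levels. HIST1H3C was at 53.4, 48.9, 86.7 and 80.4 FPKM in J+V tumors, 202, 244, 230.1 and 196 in J tumors and 227, 171, 141 and 234 in V tumors, against 261, 332, 251 and 267 in control tumors. Each J+V tumor was below each other tumor, and each J and each V tumor below each control tumor. HIST1H3C had the largest difference of the class in J+V against control, -2.07 (standard error 0.187, adjusted p = 2.31e-05) by limma, and HIST1H3J, at 6.73 ± 1.93 FPKM in J+V and 29.2 ± 5.94 in control tumors (SD, n = 4 each), had one of -2.05 (standard error 0.204, adjusted p = 2.58e-05). HIST1H3B fell by a similar amount, -1.76 (standard error 0.200, adjusted p = 4.03e-05), and HIST1H3H by less, -1.26 (standard error 0.163, adjusted p = 9.00e-05). HIST1H3H was at 29.0, 30.0, 34.3 and 47.8 FPKM in J+V tumors, against 67.3, 90.7, 77.2 and 105 in control tumors.

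In class H4, whose members other than HIST1H4G encode 1 and the same protein, HIST1H4E had the highest level of all 68 genes. It was at 325, 324, 421 and 413 FPKM in J+V tumors, 715, 786, 805 and 685 in J tumors and 673, 531, 507 and 606 in V tumors, against 726, 940.2, 828 and 926 in control tumors. The J+V tumors stood below all others, each V tumor lay below each control tumor, and the J tumors overlapped the control tumors and not the V tumors. HIST1H4E fell in J+V against control with a difference by limma of -1.21 (standard error 0.1205, adjusted p = 2.58e-05). HIST1H4C averaged 248 ± 82.9 FPKM in J+V and 669 ± 46.2 in control tumors, and HIST1H4H averaged 181 ± 40.4 in J+V and 592 ± 105 in control tumors (SD, n = 4 each). The differences were -1.49 (standard error 0.210, adjusted p = 0.000161) for HIST1H4C, -1.72 (standard error 0.163, adjusted p = 2.31e-05) for HIST1H4H and -1.74 (standard error 0.176, adjusted p = 2.62e-05) for HIST1H4B, the largest of the class.

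**Figure D3:**
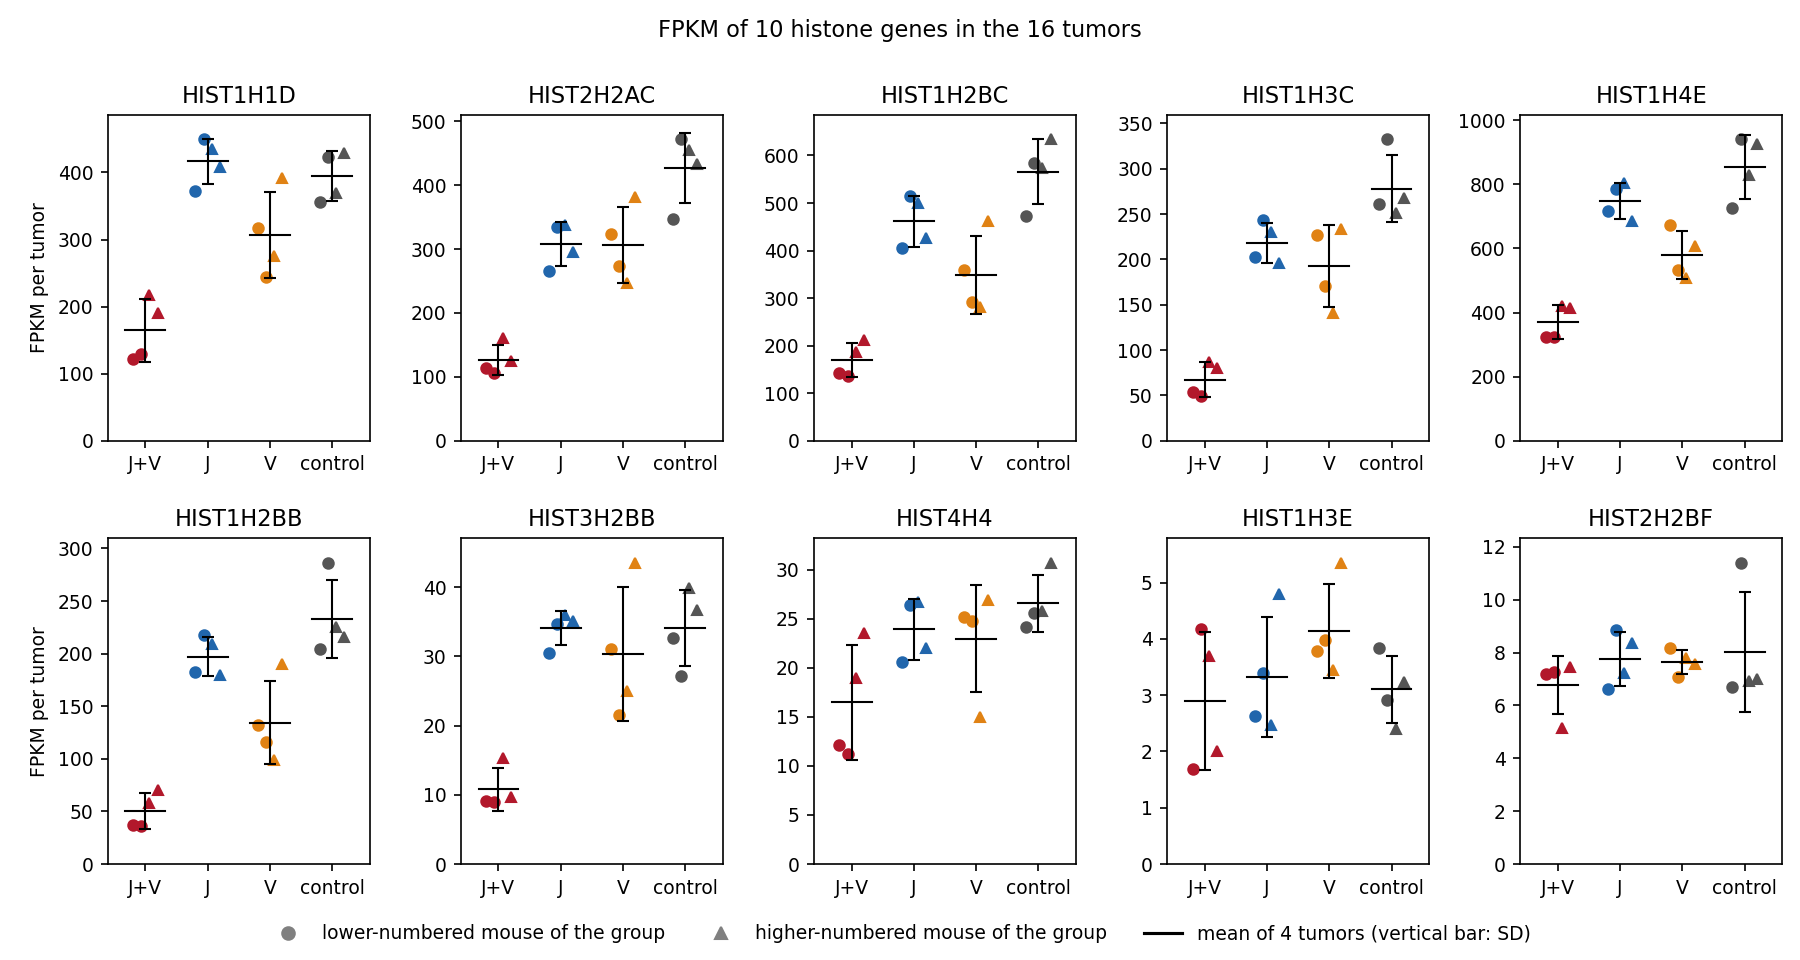
FPKM of 10 histone genes in each of the 16 tumors, by group from J+V to control, with circles for the lower-numbered and triangles for the higher-numbered mouse within each group. Bars give mean and SD over 4 tumors. The upper row holds the most abundant gene of each class, whose J+V tumors lie below all others, and in the lower row HIST1H3E and HIST2H2BF overlap between all 4 groups.

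Of the 56 tested genes 6 were not called in J+V against control. HIST2H2BF, an H2B gene with annotated spliced transcripts, was at 7.19, 7.28, 5.16 and 7.47 FPKM in J+V tumors, 6.64, 8.86, 7.23 and 8.36 in J tumors and 8.16, 7.08, 7.80 and 7.56 in V tumors, against 6.68, 11.4, 6.91 and 7.01 in control tumors. The 4 groups overlapped, and the difference was -0.21 (standard error 0.148, adjusted p = 0.293). HIST2H2BC, annotated as a pseudogene, had the one positive difference of the 56 genes, 0.49 (standard error 0.224, adjusted p = 0.0996), with 4.71, 4.89, 3.24 and 3.25 FPKM in J+V tumors and 2.87, 3.04, 1.82 and 3.18 in control tumors. Each J+V tumor was above each control tumor, by a narrow gap, and the difference did not pass the test. All 531 short windows of the annotated HIST2H2BC sequence are shared with other genes. Fragments cannot be assigned to HIST2H2BC with certainty, so its level and the sign of its difference are uncertain. HIST1H2BE averaged 4.28 ± 2.63 FPKM in J+V and 5.19 ± 1.14 in control tumors (-0.41, standard error 0.297, adjusted p = 0.291), and HIST1H3E averaged 2.89 ± 1.23 in J+V and 3.10 ± 0.602 in control tumors (-0.15, standard error 0.230, adjusted p = 0.642). HIST1H4K, which shares most of its sequence with HIST1H4J, was at 0, 1.32, 2.64 and 0 FPKM in J+V tumors and 1.07, 1.86, 2.79 and 5.13 in control tumors, and its difference of -1.40 (standard error 0.563, adjusted p = 0.0634) did not pass. HIST1H2BE and HIST1H3E, like HIST2H2BF, have annotated spliced transcripts. All 6 genes averaged under 10 FPKM over the 16 tumors.

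Level and call went together. Of the 47 genes with a mean of at least 10 FPKM, 47 were called lower (median -1.71), and of the 9 below it 3 were (median -0.41), among them HIST1H3I and HIST2H2AA3, whose direction the filter fixed. Of the 12 genes with an annotated spliced transcript 9 were called (median -1.29). Of the 40 with single-exon transcripts alone and a stem-loop found 38 were (median -1.67). HIST2H2BC, with a single-exon transcript but not searched for the stem-loop, is outside the 40 and was not called. Of the 9 genes that share at least 50% of their 50-base windows with another gene 7 were called, and of the 44 that share fewer 40 were. HIST1H3I and HIST2H2AA3 are both among the 38 single-exon genes called. In the split by windows HIST2H2AA3 is among the 7 and HIST1H3I among the 40, and nothing is read from either. These splits are counts and were not tested against each other.

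**Figure D4:**
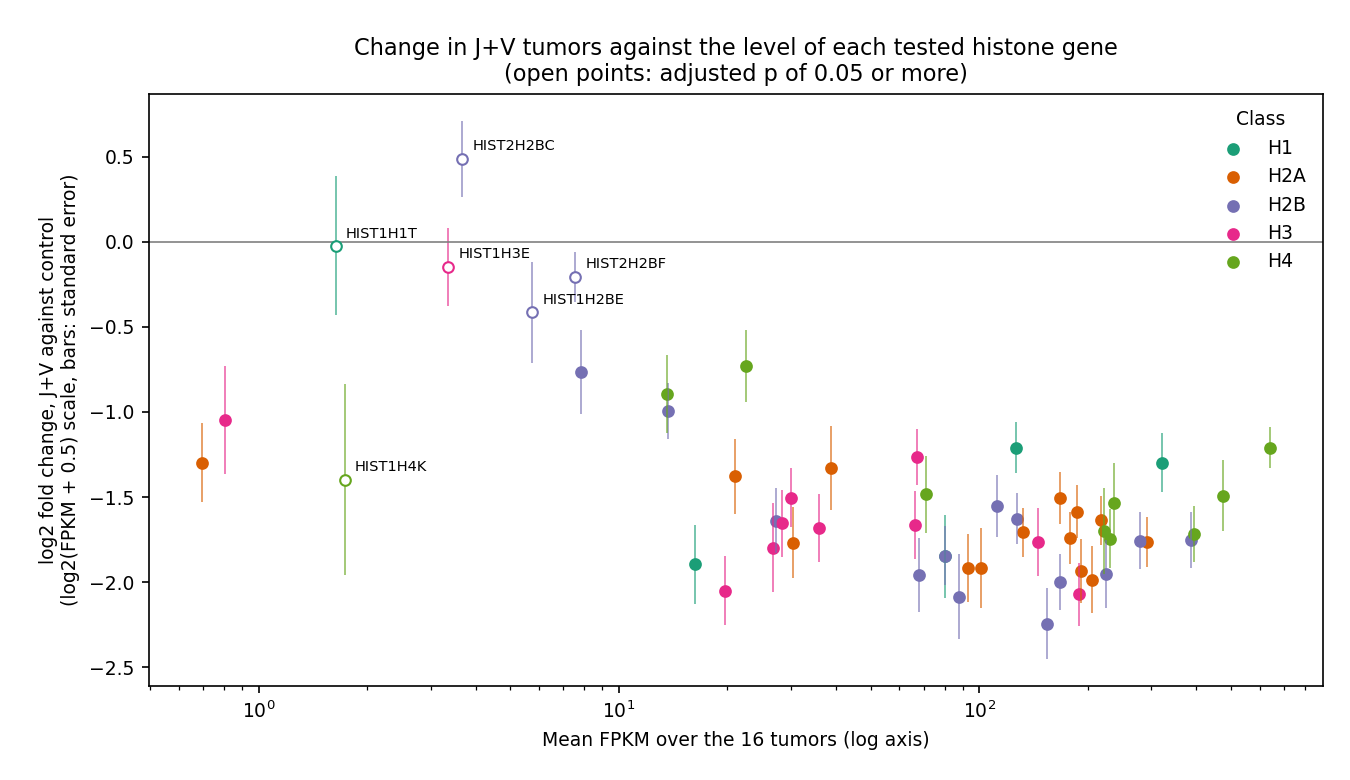
Difference on the log2(FPKM + 0.5) scale in J+V against control (vertical axis) against the mean FPKM over 16 tumors (horizontal axis, log scale) for each tested histone gene, by class, with bars for the standard error and open points for genes not called. The 47 genes at 10 FPKM or more all lie below 0 and were all called lower, and the 6 genes not called lie below 10 FPKM.

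The sums of the small clusters were lower in J+V tumors as well, that of HIST4 by less. HIST2H2BF and HIST2H2BC, described above, were not called. In HIST2, beside HIST2H2AC, the H2A gene HIST2H2AB fell in J+V against control by limma (-1.51, standard error 0.154, adjusted p = 2.62e-05), with 81.9 ± 21.1 FPKM in J+V and 229 ± 22.4 in control tumors, and so did the H3 gene HIST2H3D (-1.66, standard error 0.198, adjusted p = 5.08e-05), with 29.6 ± 5.66 FPKM in J+V and 94.8 ± 18.7 in control tumors (SD, n = 4 each). HIST2H2AA3, whose direction the filter fixed, was at 0.193, 0.382, 0 and 0.353 FPKM in J+V tumors and 0.970, 1.46, 1.70 and 1.01 in control tumors. The pseudogene HIST2H2BA was called, with a difference of -0.77 (standard error 0.247, adjusted p = 0.0247), with 4.16, 8.81, 5.58 and 3.98 FPKM in J+V tumors and 10.7, 5.88, 11.8 and 10.7 in control tumors. The groups overlapped for HIST2H2BA, and its call was lost under 8 of 37 alternatives.

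In HIST3, HIST3H2A, an H2A gene, was at 78.8, 64.0, 102 and 93.7 FPKM in J+V tumors, 197, 225, 207 and 159.8 in J tumors and 188, 196, 179 and 281 in V tumors, against 231, 274, 248 and 254 in control tumors. Each J+V tumor was below each other tumor, and 1 V tumor was above each control tumor. HIST3H2A fell in J+V against control (-1.59, standard error 0.154, adjusted p = 2.31e-05), as did its neighbor HIST3H2BB (-1.64, standard error 0.193, adjusted p = 4.89e-05), which averaged 10.8 ± 3.06 FPKM in J+V and 34.1 ± 5.47 in control tumors (SD, n = 4 each). HIST4H4, the one member of its cluster, was at 12.1, 11.3, 18.9 and 23.6 FPKM in J+V tumors, 20.6, 26.4, 26.8 and 22.01 in J tumors and 25.2, 24.8, 14.9 and 27.0 in V tumors, against 24.2, 25.6, 25.8 and 30.7 in control tumors. The tumors of mouse 33 were below all others and those of mouse 34 overlapped J and V tumors. HIST4H4 was called in J+V against control, with a difference of -0.73 (standard error 0.212, adjusted p = 0.0145), and the call was lost under 5 of 37 alternatives. The HIST4 sum stood at 62.0% of control in J+V tumors, against 32.5% for HIST1, 32.9% for HIST2 and 33.4% for HIST3.

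Against each single drug the J+V tumors were lower as well. In J+V against J, 48 of 56 genes were called lower and 0 higher, beside 18.4% and 8.67% of all genes, with a median of -1.47 (all genes -0.05). In J+V against V, 45 of 56 were called lower and 0 higher, beside 8.31% and 4.99% of all genes, with a median of -1.06 (all genes -0.03). By class the lower calls against J numbered 4 in H1, 14 in H2A, 12 in H2B, 10 in H3 and 8 in H4, with medians of -1.38, -1.42, -1.61, -1.61 and -1.33. Against V they numbered 4 in H1, 13 in H2A, 12 in H2B, 9 in H3 and 7 in H4, with medians of -0.92, -1.18, -1.12, -1.08 and -0.80. Without HIST1H3I and HIST2H2AA3 the totals were 46 of 54 against J (median -1.49) and 45 of 54 against V (median -1.08). Their classes then stood at 13 of 13 for H2A (median -1.43) and 9 of 10 for H3 (-1.62) against J. Against V they stood at 13 of 13 for H2A (-1.19) and 9 of 10 for H3 (-1.09). These comparisons share the J+V tumors with each other and with the comparison to control.

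HIST1H2BB, in H2B, had a difference of -2.01 (standard error 0.211, adjusted p = 0.000113) when J+V was set against J. Set against V it was -1.42 (standard error 0.211, adjusted p = 0.00131). HIST1H4E, the most abundant gene, had -1.02 (standard error 0.1205, adjusted p = 0.000145) relative to J, while relative to V the value was -0.65 (standard error 0.1205, adjusted p = 0.00452). HIST1H1D had -1.38 against J and -0.92 against V (adjusted p = 0.000166 and 0.00484 by limma). Each J+V tumor lay below each V tumor in 39 of 56 genes, against 9.15% of all genes. The count of calls against V moved with the mouse. It was 21 of 56 when the tumors of each mouse were averaged (1.74% of all genes called, in either direction), 27 without mouse 33 (2.46%) and 29 without mouse 19 (3.09%).

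In V tumors the histone genes lay below control by less, and no single gene passed the test. In V against control limma called 0 of 56 (0% of all genes), with 43 of 56 genes (76.8%) at an unadjusted p under 0.05, against 16.1% of all genes. The medians were -0.40 for H1, -0.54 for H2A, -0.55 for H2B, -0.55 for H3 and -0.71 for H4, and -0.57 over the 56 genes (all genes 0.01). Each V tumor lay below each control tumor in 21 of the 56 genes, against 1.99% of all genes, with 7 of 10 H4 genes among them. HIST1H3I and HIST2H2AA3 stayed under 1 FPKM in each V tumor too, so they passed the filter through J and control tumors alone. HIST2H2AA3 is among the 43 genes and the 21 genes, and nothing is read from it. Without both genes the medians were -0.52 for H2A, -0.56 for H3 and -0.57 over 54 genes. Without the right tumor of mouse 19, 15 of 56 genes were called lower in V against control, against 1.32% of all genes called in either direction. Without the right control tumor of mouse 5, 3 were (5.36% of 56), against 3.15% of all genes. HIST1H4H, of class H4, was at 348, 297, 319.8 and 421 FPKM in V tumors, against 461, 704, 559.5 and 642 in control tumors, with a difference of -0.77 (standard error 0.163, adjusted p = 0.141). Its groups did not overlap, and the gene did not pass the test over all genes.

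In J tumors the histone genes lay close to control. In J against control limma called 0 of 56 (0% of all genes), and 3 of 56 (5.36%) had an unadjusted p under 0.05, against 8.49% of all genes. The count stayed at 0 under each of 37 alternatives. The medians were -0.03 for H1, -0.23 for H2A, -0.12 for H2B, -0.02 for H3 and -0.17 for H4, and -0.16 over the 56 genes (all genes 0.04). Each J tumor lay below each control tumor in 5 genes (HIST1H2AM, HIST1H3C, HIST1H4C, HIST2H2AC and HIST3H2A), against 1.66% of all genes. HIST2H2AC, in H2A, had the most negative difference, -0.47 (standard error 0.146, adjusted p = 0.361).

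Whether J+V differed from the added effects of J and V was tested as a term of the same fit, here called the departure. None of 56 genes passed over all genes (0 of 56, 0% of all genes), while 44 of 56 (78.6%) had an unadjusted p under 0.05, against 12.6% of all genes. The class medians of the departure were -0.998 for H1, -0.94 for H2A, -1.08 for H2B, -1.05 for H3 and -0.57 for H4, and the median was -0.92 over the 56 genes (all genes -0.07), so J+V tumors were lower than the sum of the single-drug differences in 98.2% of them, against 61.5% of all genes. HIST3H2BB, an H2B gene, had the most negative departure, -1.44 (standard error 0.273, adjusted p = 0.0981). Calls appeared when tumors of mouse 34 were left out, 24 of 56 without its left tumor (0.946% of all genes) and 39 of 56 without the mouse (2.7%). The group means stood in the order J+V, V, J and control, low to high, in 39 of the 56 genes, against 16.5% of all genes. The J+V mean was the lowest of the 4 in 53 of 56, against 44% of all genes. HIST1H3I and HIST2H2AA3 are among the 53, HIST2H2AA3 is also among the 39 with group means in the stated order, and nothing is read from them.

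The make-up of the histone RNA by class shifted by a few percentage points. H4 took 36.6 ± 0.855% of the summed FPKM in J+V tumors, 31.9 ± 0.718% in J tumors and 31.2 ± 2.67% in V tumors, against 32.8 ± 0.807% in control tumors (SD, n = 4 each). The share in each J+V tumor (35.9 to 37.7%) was above that in each control tumor (32.1 to 33.8%). H2B took 22.2 ± 0.626% in J+V tumors, 25.6 ± 0.460% in J tumors and 24.7 ± 1.54% in V tumors, against 25.005 ± 0.312% in control tumors, and each J+V tumor (21.3 to 22.8%) was below each control tumor (24.6 to 25.4%). The shares of H1, H2A and H3 in J+V tumors were 8.49 ± 0.650%, 24.8 ± 1.12% and 7.86 ± 0.376%, against 7.02 ± 0.219%, 26.6 ± 0.714% and 8.62 ± 0.408% in control tumors. Shares of 1 sum depend on each other and were not tested.

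The 12 genes that did not pass the filter were HIST1H2AA, HIST1H2APS1, HIST1H2BA, HIST1H4G, HIST1H4J, HIST1H4L, HIST2H2AA4, HIST2H3A, HIST2H3C, HIST2H4A, HIST2H4B and HIST3H3. Of these 4 (HIST1H2APS1, HIST1H2BA, HIST1H4G and HIST2H3A) were listed at 0 in all tumors, and the highest value of any was 2.62 FPKM, of HIST1H4L in 1 V tumor. HIST1H2BA and HIST3H3 encode histones of the testis. HIST2H2AA3 and HIST2H2AA4, HIST2H3A and HIST2H3C, HIST2H4A and HIST2H4B, and HIST1H4J and HIST1H4K are copies alike in sequence, between which the counting could split or drop fragments, so their levels are uncertain. The annotated sequence of HIST2H2BC is wholly shared with other genes, so its level is uncertain too. HIST1H2AD and HIST1H3D do not overlap in the GENCODE annotation. A RefSeq promoter listed for HIST1H3D is also that of HIST1H2AD, so they may share fragments. HIST1H3J and HIST1H2AM overlap in the GENCODE annotation, on the same strand, and may share fragments too. In control tumors HIST1H2AM averaged 302 FPKM and HIST1H3J 29.2 FPKM. The part of shared fragments in the values of HIST1H3J was not tested.

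The genes that act on histone genes or travel with them were taken from lists, whose counts stand beside the 20.5% of all genes called lower and the 16.6% called higher in J+V against control. Nothing is read from counts in lists of a few genes. Of 6 transcription factors of histone genes, 2 fell in J+V against control and 0 rose (median -0.03). NPAT, the coactivator of histone genes at the histone locus body, was at 12.4 ± 1.37 FPKM in J+V and 11.4 ± 1.93 in control tumors (SD, n = 4 each), with a difference of 0.12 (standard error 0.106, adjusted p = 0.379), and CASP8AP2, a protein of the same body, had 0.09 (standard error 0.154, adjusted p = 0.674). Neither passed the test. The 2 that fell were E2F1, which drives S phase genes (-1.27, standard error 0.184, adjusted p = 0.000190), and YY1 (-0.24, standard error 0.0682, adjusted p = 0.0140).

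Of 10 tested genes for the cleavage of histone mRNA, 4 fell and 0 rose (median -0.28). SLBP, which binds the stem-loop printed above, averaged 35.6 ± 4.38 FPKM in J+V and 57.8 ± 4.89 in control tumors (SD, n = 4 each) and fell, with a difference of -0.70 (standard error 0.1003, adjusted p = 0.000184), and LSM11, a U7 particle protein, fell, with a difference of -0.57 (standard error 0.0746, adjusted p = 9.48e-05). SRRT (-0.77) and CSTF2 (-0.48) were the other genes called. Of 5 genes for the decay of histone mRNA, 3 fell and 0 rose (median -0.17). ERI1, an exonuclease that trims the stem-loop, had -0.36 (standard error 0.0834, adjusted p = 0.00389), and UPF1, a helicase recruited at the end of S phase, -0.37 (standard error 0.118, adjusted p = 0.0229). The third was EXOSC10 (-0.17).

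Partners of new histones fell as well. Of 11 histone chaperones of S phase, 9 fell and 0 rose (median -0.61). ASF1B, which hands H3 and H4 to the assembly factors, averaged 4.02 ± 0.987 FPKM in J+V and 9.60 ± 1.39 in control tumors and fell, with a difference of -1.17 (standard error 0.1498, adjusted p = 8.39e-05). CHAF1B, a subunit of the CAF-1 assembly factor, fell, with a difference of -0.80 (standard error 0.121, adjusted p = 0.000260). Of 20 tested genes of S phase entry and DNA replication (21 listed), 20 fell, with differences from -2.04 to -0.51 (median -1.15). MKI67 averaged 13.9 ± 5.49 FPKM in J+V tumors and 26.8 ± 3.36 in control tumors (SD, n = 4 each), with a difference of -0.99 (standard error 0.196, adjusted p = 0.00148). The histone genes and these S phase genes fell in the same tumors, and the part of the share of cells in S phase was not tested.

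The 5 HIST genes left out for their polyadenylated mRNA all fell, with a median of -0.87. HIST1H1C had the largest difference, -1.74 (standard error 0.248, adjusted p = 0.000170), within the range of the H1 genes described above. HIST1H2BK (-1.18, standard error 0.194, adjusted p = 0.000440), HIST1H2AC (-0.87), HIST1H2BD (-0.86) and HIST2H2BE (-0.78) lay above the class medians of H2A and H2B. HIST2H2BE was at 24.7, 26.7, 20.7 and 22.001 FPKM in J+V tumors, 38.6, 43.99, 38.8 and 43.7 in J tumors and 32.4, 36.3, 32.9 and 47.0 in V tumors, against 36.1, 49.98, 36.1 and 41.5 in control tumors. Of 12 replication-independent histone variant genes, 9 fell and 1 rose (median -0.47). H2AFZ, which encodes the variant H2A.Z and is made through the cell cycle, averaged 101 ± 31.0 FPKM in J+V and 237 ± 27.5 in control tumors (SD, n = 4 each) and fell, with a difference of -1.26 (standard error 0.189, adjusted p = 0.000235). H2AFJ, an H2A variant, was the one that rose, with a difference of 0.46 (standard error 0.124, adjusted p = 0.0103).

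**Figure D5:**
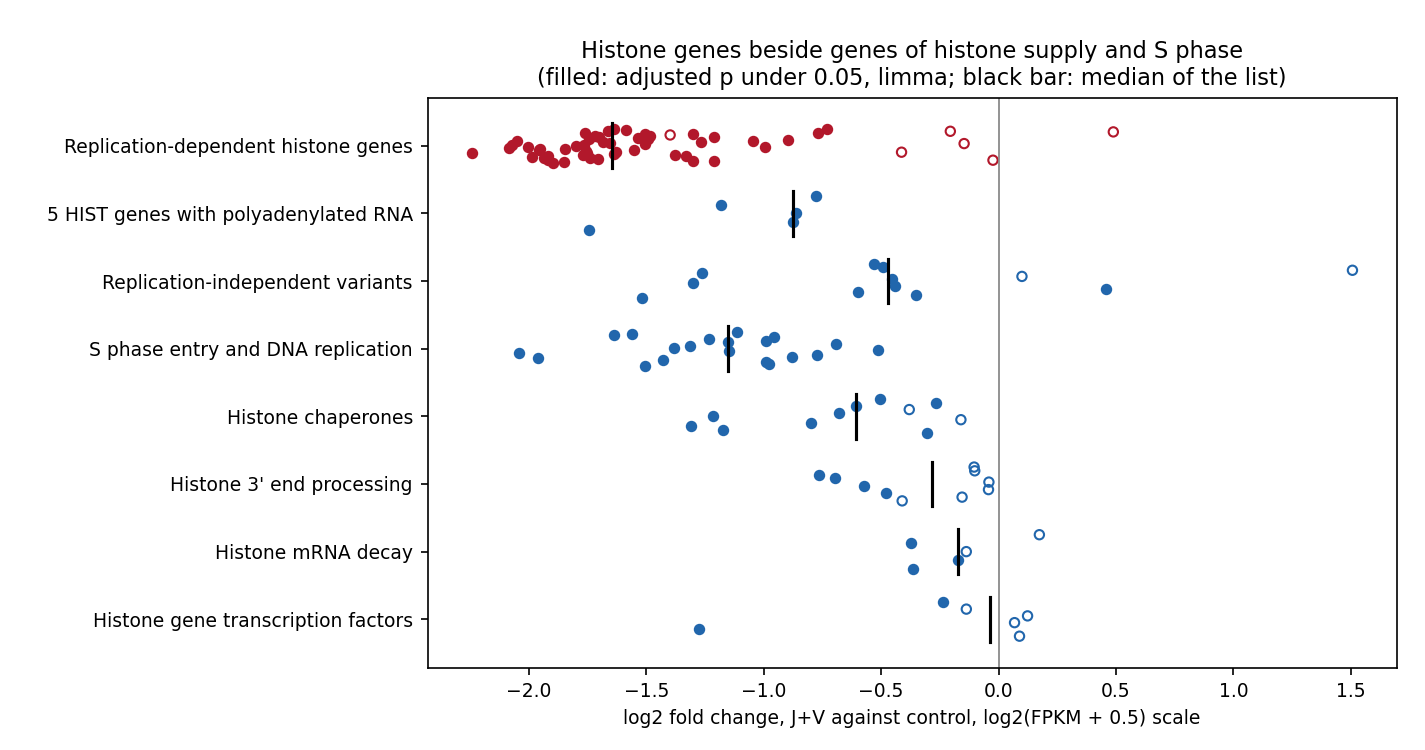
Difference on the log2(FPKM + 0.5) scale in J+V against control for the tested genes of each list and for the 56 tested replication-dependent histone genes. Points are genes, filled where called, and bars the medians. The replication-dependent histone genes (median -1.65) and the S phase genes (median -1.15) lie lowest, and the transcription factors (median -0.03) near 0.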

How the data were processed

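RNA of 16 A375 tumors, 4 from 2 mice in each of the J+V, J, V and control groups, was measured by sequencing of ribosomal RNA-depleted libraries (RiboZero, ScriptSeq v2). The authors deposited FPKM for 23260 gene symbols. The submitters' processing notes name bcl2fastq, TopHat, Cufflinks and hg19, without versions, and the methods of the study name TopHat2. No annotation and no step to remove mouse reads is given in the sources used here. Histone coding sequences are much alike in mouse and human, and the part of host reads in the histone FPKM was not tested. The study tested counts with DESeq, and counts are not used here.

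Values were used as log2(FPKM + 0.5). Genes that reached 1 FPKM in 4 or more of 16 tumors, 13426 in all, entered a fit by limma 3.58.1 in R 4.3.3 (mean-variance trend, a term for each of 4 groups, the mouse as a block, 12 residual degrees of freedom), with two-sided tests and p-values adjusted over all 13426 by Benjamini-Hochberg. The correlation of tumors of 1 mouse, 1 value for all genes tested, was estimated at -0.0674, and a negative value makes the test liberal. For histone genes, whose J+V tumors sat together by mouse, the standard errors and p-values can be too small. With 1 mean per mouse 21 of 56 were called against V, where the main fit called 45. In J+V against control 47 to 52 were called under all alternatives. The scripts were tested on simulated data. Relative depth was read from the smallest steps between FPKM under 0.15. Stem-loops were searched in GRCh37 with GENCODE v44 lifted to that build, and promoters are from RefSeq (GRCh38.p14). Named are the 3 most abundant genes and the 2 with the largest change in J+V in each class, tested genes of HIST2, HIST3 and HIST4, genes called higher in any comparison, genes not called, at most 5 genes called in J, in V or for the departure, SLBP, NPAT, CASP8AP2, ASF1B, CHAF1B, H2AFZ, MKI67 and the 5 genes left out. E2F1, YY1, LSM11, SRRT, CSTF2, ERI1, UPF1, EXOSC10, H2AFJ and the marker genes fall outside this rule and were named after their values were seen. RNU7-1, on the list for cleavage, was not analysed here. The histone genes, the lists and the tests were chosen with earlier results of these data known.

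Each choice was varied in turn. The pseudocount was set to 0.1 or 1, the filter dropped or raised to a mean of 5 FPKM, and the tumors rescaled by TPM (with and without small RNAs), upper quartile or quantiles. The fit was run without the block, on 1 mean per mouse, with a flank term, with robust moderation, on the compared groups alone, and without single tumors or mice. Python 3.11.15, pandas 2.3.3, numpy 2.4.6 and matplotlib 3.10.9 were used for tables and plots.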

Additional observations from a re-analysis of the deposited data

Results flagged for a closer look

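Of 176 groups of 4 tumors (44 sums and genes in 4 groups), 11 held 1 tumor far from the other 3, where chance flags about 1 in 20 groups. The gap of that tumor to its nearest neighbor is given as a share of the range of its group, taken on the log2(FPKM + 0.5) scale for genes and on the log2 scale for sums, while the levels are in FPKM. The left control tumor of mouse 2 was the lowest control tumor for the H2A sum (2279 FPKM, against 2707 to 2782 in the others, gap 0.863), HIST1H2BG (334 against 406 to 419 FPKM, gap 0.858) and HIST1H3J (20.4 against 31.3 to 33.4 FPKM, gap 0.868). The right control tumor of mouse 2 was the lowest for HIST2H2BA (5.88 against 10.7 to 11.8 FPKM, gap 0.861) and the highest for HIST2H2BF (11.4 against 6.68 to 7.01 FPKM, gap 0.911).

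Among the V tumors, the right tumor of mouse 19 was the highest for the HIST3 sum (324 against 204 to 219.5 FPKM, gap 0.838). The left tumor of mouse 19 was the lowest for HIST4H4 (14.9 against 24.8 to 27.0 FPKM, gap 0.858), which is also the HIST4 sum (gap 0.859). In the J+V tumors the left tumor of mouse 34 was the lowest for HIST2H2BF (5.16 against 7.19 to 7.47 FPKM, gap 0.895) and the highest for HIST3H2BB (15.3 against 8.93 to 9.72 FPKM, gap 0.844). In the J tumors the left tumor of mouse 26 was the lowest for HIST1H3H (74.5 against 92.4 to 95.9 FPKM, gap 0.855).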

How the results depend on the processing

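Under 37 alternatives 47 to 52 histone genes were called in J+V against control and 44 to 50 in J+V against J, counted in either direction. The number tested was 56 except with no filter (68) and with a mean of 5 FPKM (50). The departure, which needs all 4 groups, had 36 alternatives. No called gene changed sign. HIST1H1T (-0.31 to 0.33) and HIST1H3E (-0.32 to 0.02) did, neither called under any alternative (lowest adjusted p by limma 0.517 and 0.205). Leaving out mouse 33 or 34 gave medians for J+V against control of -1.34 and -1.92 over the 56 genes, -0.95 and -1.65 for H1, -1.47 and -1.94 for H2A, -1.44 and -1.96 for H2B, -1.33 and -2.04 for H3, and -1.08 and -1.91 for H4. It gave -1.18 and -1.72 for J+V against J, -0.73 and -1.34 for J+V against V, and -0.65 and -1.20 for the departure. The H4 median was -1.21 with no filter, the H1 median -1.57 when a mean of 5 FPKM was required, and the H2B median -1.91 with a common sum per tumor, which moved the median of all genes in J+V against control to -0.22. Calls against V numbered 21 with the mean of each mouse's tumors, 27 to 46 over mice left out (27 without mouse 33, 29 without mouse 19) and 37 to 46 over tumors left out. In V against control they ranged over 0 to 15 (15 without the right tumor of mouse 19 and 3 without the right control tumor of mouse 5). For the departure they ranged over 0 to 24 without 1 tumor (24 without the left tumor of mouse 34) and 0 to 39 without 1 mouse (39 without mouse 34). The call was lost for HIST2H2BA under 8 alternatives and for HIST4H4 under 5, and it was gained for HIST1H4K under 6 and HIST2H2BC under 2. The gained calls of HIST2H2BC were as higher in J+V, since its difference was positive throughout (0.24 to 0.74). The cause was not tested. No paired analysis was possible because replicate numbers follow the order of the samples and pair no tumors across groups. The number of fragments behind each FPKM is unknown, so the error of low genes cannot be given.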
